A study of Mus musculus with 9 samples.

Results

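The Hippo pathway core was followed in whole ovaries of juvenile mice across the days on which follicles first form a fluid-filled antrum. It comprised 10 genes, namely the effectors Yap1 and Wwtr1, the kinases Lats1, Lats2, Stk3 and Stk4, the adaptor Sav1 and the transcription factors Tead1, Tead2 and Tead3. These were chosen by name from the 52025 genes in the tables, and each symbol matched 1 gene. RNA from ovaries of Kunming mice on postnatal day (PD) 14, PD15 and PD16 was sequenced, with 3 libraries from independent ovaries for each day, and the labels name no allele, agent or treatment. The labels give the tissue as ovary but the source as granulosa cells. All 10 oocyte markers examined were present, with Zp3, a protein of the egg coat, at 263 to 416 FPKM and Gdf9, an oocyte growth factor, at 206 to 274 FPKM over the 9 libraries, so the libraries are described here as ovary.

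The Hippo pathway is a kinase cascade that restrains growth. The MST kinases, encoded by Stk3 and Stk4, work with the scaffold SAV1 to activate the LATS kinases, which phosphorylate the coactivators YAP (Yap1) and TAZ (Wwtr1) and keep them in the cytoplasm. Unphosphorylated YAP and TAZ enter the nucleus and drive transcription with the TEAD factors, among whose known targets are Ccn1, Ccn2 and Lats2 itself. In the ovary the pathway is known for its part in follicle activation and granulosa cell growth. Since its control is largely through phosphorylation, transcript levels describe how much message each component has, not how active the cascade is.

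Expression was given as FPKM, a fragment count divided by transcript length and sequencing depth, which allows levels of different genes to be set side by side. Depth was derived at 20.4 to 28.7 M mapped fragments per library, with 14590 to 14923 genes above 1 FPKM in each of them. Each core gene was then covered by about 945 to 5804 fragments in a library. The libraries are of whole tissue, so fewer cells of a type and less RNA per cell cannot be told apart.

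None of the 10 core genes changed between any of the days at an adjusted p under 0.05 by limma, a linear model with moderated variances that was fitted to log2(FPKM + 1) of all 15495 genes tested. The same threshold was passed by 0.678% of all genes at PD15 against PD14 (0.336% higher and 0.342% lower), 4.25% at PD16 against PD14 (2.36% higher and 1.89% lower) and 0.729% at PD16 against PD15 (0.432% higher and 0.297% lower). In the F test over the 3 days, which asks for any difference among them, 0 of 10 core genes passed beside 3.03% of all genes, and 2 had an unadjusted p under 0.05 beside 22.3%. At an unadjusted p under 0.05 there were 0 core genes at PD15 against PD14 beside 14.7% of all genes, 4 at PD16 against PD14 beside 22.8%, and 2 at PD16 against PD15 beside 14.1%. The 4 genes were Wwtr1, Lats1, Lats2 and Stk4, all with higher means at PD16, and Wwtr1 and Lats2 were the 2. In each comparison 7 of the 10 log2 changes were above 0, beside 51.9%, 52.2% and 53.1% of all genes. The median log2 change of the core was 0.03, 0.08 and 0.03 in this order, and that of all genes 0.00651, 0.00934 and 0.00906.

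The 95% interval of a core gene reached 0.10 to 0.30 on the log2 scale to either side of its change. The largest log2 change in size was 0.21 for Lats2 at PD16 against PD15, with an interval of 0.06 to 0.37. Counted by libraries, no core gene had days without overlap at PD15 against PD14, where 20.6% of all genes did (10.4% higher and 10.2% lower). At PD16 against PD14, Wwtr1, Lats2 and Stk4 were higher in every PD16 library, which is 3 of 10 genes beside 28.5% of all genes (15% higher and 13.5% lower). At PD16 against PD15, Wwtr1, Lats2 and Sav1 were higher and Tead2 was lower in every PD16 library, beside 19.6% of all genes (9.85% higher and 9.73% lower). With 3 libraries against 3, the exact two-sided permutation test of a single gene cannot give a p below 0.1, the value of each gene without overlap.

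**Figure D1:**
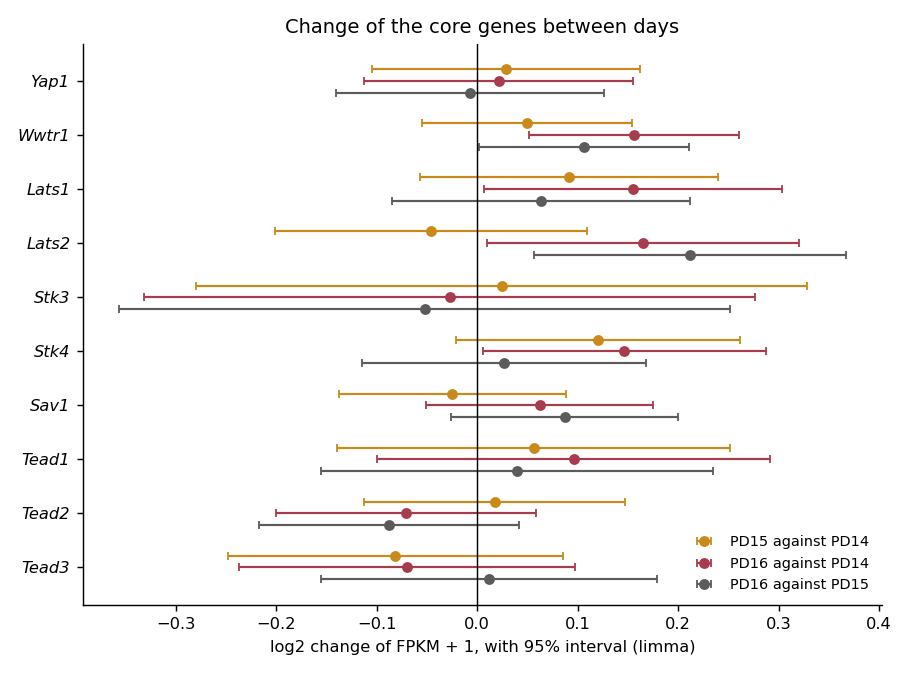
Log2 change of FPKM + 1 (x axis) of each of the 10 core genes between days, with points for the limma estimate and bars for its 95% interval. The intervals of Wwtr1, Lats1, Lats2 and Stk4 lie above 0 for PD16 against PD14 and those of Wwtr1 and Lats2 for PD16 against PD15, while no gene passed an adjusted p of 0.05.

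The core genes were expressed at moderate to high levels and in a stable order. Over the 9 libraries Wwtr1 had the highest mean with 31.0 FPKM, followed by Sav1 with 27.6, Tead2 with 23.3 and Yap1 with 23.2 FPKM. The MST kinase genes Stk3 and Stk4 followed with 17.0 and 16.9 FPKM, and the LATS kinase genes Lats1 and Lats2 with 13.4 and 10.2 FPKM. Tead1 with 8.21 and Tead3 with 6.71 FPKM were lowest, which placed the core between the 45.9th and the 87.4th percentile of the 14822 genes with a mean FPKM above 1. In this order each gene was above the next in 9 of 9 libraries, apart from Tead2, above Yap1 in 3 of 9, and Stk3, above Stk4 in 4 of 9, so these neighbours could not be ranked.

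Spread between libraries of the same day was small for most of the core. The within-day SD on the log2 scale was under the median of all genes tested, 0.111, for 8 of the 10 genes, and the range of the 3 day means was under the median of 0.163 for 9 of 10. Wwtr1 had a within-day SD of 0.02, at the 0.200th percentile of all genes, and Sav1 one of 0.04, at the 1.98th. Stk3 was at the other end with 0.20, at the 82.5th percentile. All genes tested include genes with lower FPKM than the core, and the comparison was not matched for level. These are descriptions of the libraries, and the genes were not set against others by a test.

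**Figure D2:**
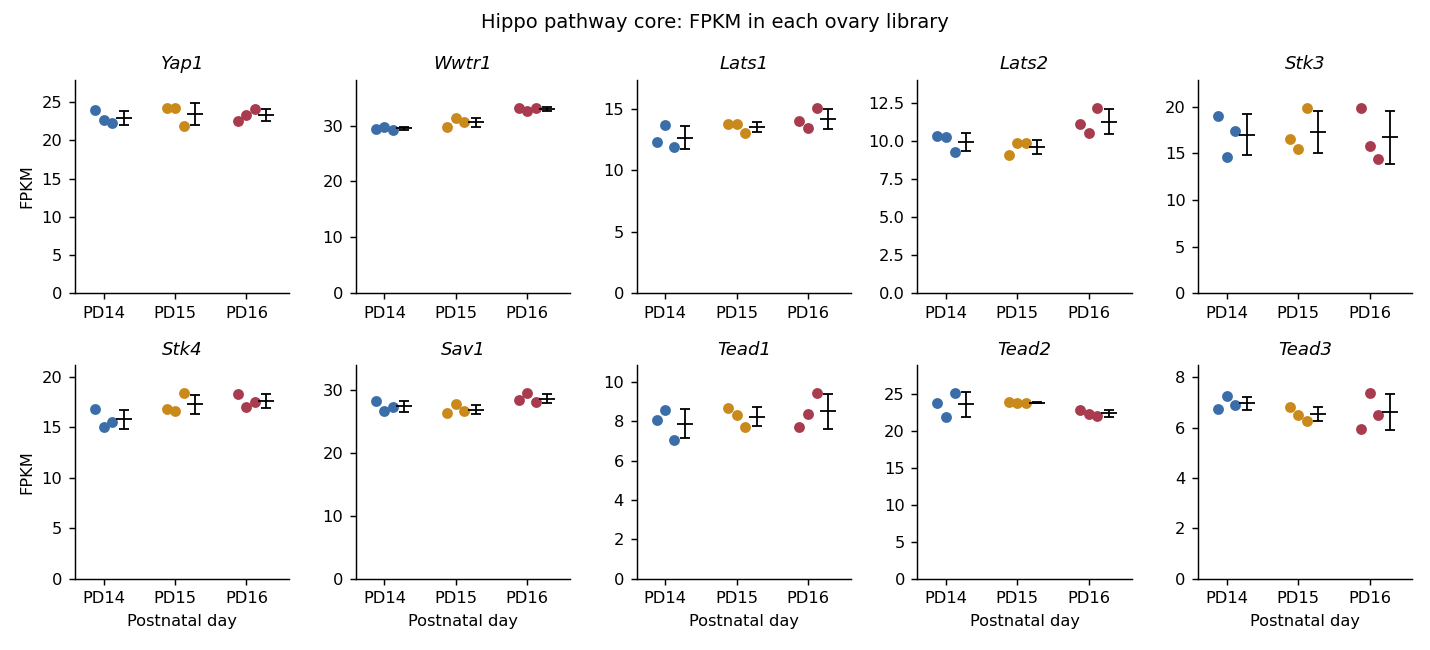
FPKM (y axis, from 0) of the 10 core genes in each ovary library by postnatal day, with points for libraries and bars for the mean ± SD of 3. Wwtr1 lies between 32.6 and 33.2 at PD16 and at no more than 31.4 before, while Stk3 spreads over 14.4 to 19.9 within PD16 alone.

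Of the effectors, Yap1 (ENSMUSG00000053110, minus strand of chr9:7931999-8004596, GRCm38) encodes the coactivator YAP. Its FPKM was 23.9, 22.6 and 22.3 at PD14, 24.2, 24.3 and 21.8 at PD15, and 22.6, 23.3 and 24.1 at PD16. The 3 days covered the same range, and each day held at least 1 library below 23 FPKM and 1 above. Day means were 22.9 ± 0.887, 23.4 ± 1.40 and 23.3 ± 0.733 FPKM (SD, n = 3). The log2 change was 0.03 at PD15 against PD14 with an interval of -0.11 to 0.16, and 0.02 at PD16 against PD14 with an interval of -0.11 to 0.15 (adjusted p = 0.866 and 0.865, limma).

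Wwtr1 (ENSMUSG00000027803, minus strand of chr3:57455649-57575910) encodes TAZ, the paralogue of YAP. Its FPKM was 29.5, 29.8 and 29.3 at PD14, 29.7, 31.4 and 30.6 at PD15, and 33.1, 32.6 and 33.2 at PD16. All 3 PD16 libraries stood above the 6 earlier ones, and the PD15 libraries overlapped those of PD14 only through the lowest of them. Means were 29.5 ± 0.248, 30.6 ± 0.848 and 33.0 ± 0.351 FPKM (SD, n = 3), so PD16 was 1.11-fold PD14 on the scale of FPKM + 1. The log2 change of 0.16 (SE 0.05, interval 0.05 to 0.26) had an unadjusted p of 0.00804 and an adjusted p of 0.0901 by limma, which missed the threshold. Over the alternatives its adjusted p ran from 0.0742 to 0.214 and the log2 change from 0.15 to 0.16. PD16 against PD15 gave 0.11 (adjusted p = 0.348, limma). The summed FPKM of the 8 leukocyte markers, of which 5 were above 1 FPKM, also stood higher at PD16 without overlap. It was 19.9 to 22 at PD14 and 22.8 to 24.1 at PD16. Within it, the means of C1qa, C1qb, C1qc, Adgre1 and Ptprc were higher at PD16, and those of Csf1r, Cd68 and Aif1 were lower. The part of this sum in the difference of Wwtr1 and in those of Lats2 and Stk4 was not tested.

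Within a library, the ratio of Yap1 to Wwtr1 was below 1 throughout. It was 0.760 to 0.812 at PD14, 0.712 to 0.815 at PD15 and 0.682 to 0.724 at PD16, with means of 0.778 ± 0.0298, 0.767 ± 0.0518 and 0.707 ± 0.0216 (SD, n = 3). The PD16 ratios lay below those of PD14 without overlap, whereas PD15 overlapped both other days. The ratio holds the values of both genes already given, and it was not tested.

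Among the kinases, Lats2 (ENSMUSG00000021959, minus strand of chr14:57689662-57758388) is both a LATS kinase gene and a known target of YAP and TAZ. Its FPKM was 10.3, 10.2 and 9.25 at PD14, 9.05, 9.83 and 9.84 at PD15, and 11.1, 10.5 and 12.2 at PD16. Every PD16 library was above the 6 earlier ones, while PD14 and PD15 overlapped. Means were 9.92 ± 0.581, 9.57 ± 0.456 and 11.3 ± 0.848 FPKM (SD, n = 3). The log2 change was 0.17 at PD16 against PD14 (interval 0.01 to 0.32, adjusted p = 0.194) and 0.21 at PD16 against PD15 (unadjusted p = 0.0129, adjusted p = 0.198), both by limma.

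Its paralogue Lats1 (ENSMUSG00000040021, plus strand of chr10:7681214-7716460) had 12.3, 13.7 and 11.9 FPKM at PD14, 13.8, 13.7 and 13.0 at PD15, and 14.0, 13.5 and 15.1 at PD16. The days overlapped, since 1 PD14 library exceeded the lowest of PD16. The log2 change at PD16 against PD14 was 0.16 with an interval of 0.01 to 0.30 (adjusted p = 0.202, limma). Lats1 exceeded Lats2 in every library, by a ratio of 1.2 to 1.52. The mean ratio was 1.27 ± 0.0723 at PD14, 1.41 ± 0.102 at PD15 and 1.26 ± 0.0212 at PD16 (SD, n = 3).

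The MST1 gene Stk4 (ENSMUSG00000018209, plus strand of chr2:164070322-164155524) had 16.9, 15.1 and 15.5 FPKM at PD14, 16.8, 16.7 and 18.4 at PD15, and 18.3, 17.0 and 17.5 at PD16. PD16 was above PD14 in all libraries, although the highest PD14 and the lowest PD16 library differed only by 16.9 against 17.0 FPKM. Means were 15.8 ± 0.941, 17.3 ± 0.964 and 17.6 ± 0.676 FPKM (SD, n = 3). The log2 change was 0.12 at PD15 against PD14 (adjusted p = 0.411) and 0.15 at PD16 against PD14 (interval 0.01 to 0.29, adjusted p = 0.204), both by limma.

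The MST2 gene Stk3 (ENSMUSG00000022329, minus strand of chr15:34875496-35178921) varied more between libraries of a day than between days. Its FPKM was 19.0, 14.6 and 17.4 at PD14, 16.5, 15.5 and 19.9 at PD15, and 19.9, 15.8 and 14.4 at PD16. Each day held low and high libraries, and day means were 17.0 ± 2.21, 17.3 ± 2.28 and 16.7 ± 2.86 FPKM (SD, n = 3). The log2 change at PD16 against PD14 was -0.03, and its interval of -0.33 to 0.28 was the widest of the core (adjusted p = 0.925, limma). The 3 libraries with the highest summed FPKM over all genes, at 331616, 338237 and 342803 beside 308363 to 326584 in the others, were replicate 3 of PD14, replicate 1 of PD16 and replicate 3 of PD15, with 17.4, 19.9 and 19.9 FPKM of Stk3. Replicate 1 of PD14, with 19.0 FPKM of Stk3, was not among them. Stk4 had 15.5, 18.3 and 18.4 FPKM in the same 3 libraries, in this order. The part of this sum in either gene was not tested. The ratio of Stk3 to Stk4 ran from 0.826 to 1.13.

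**Figure D3:**
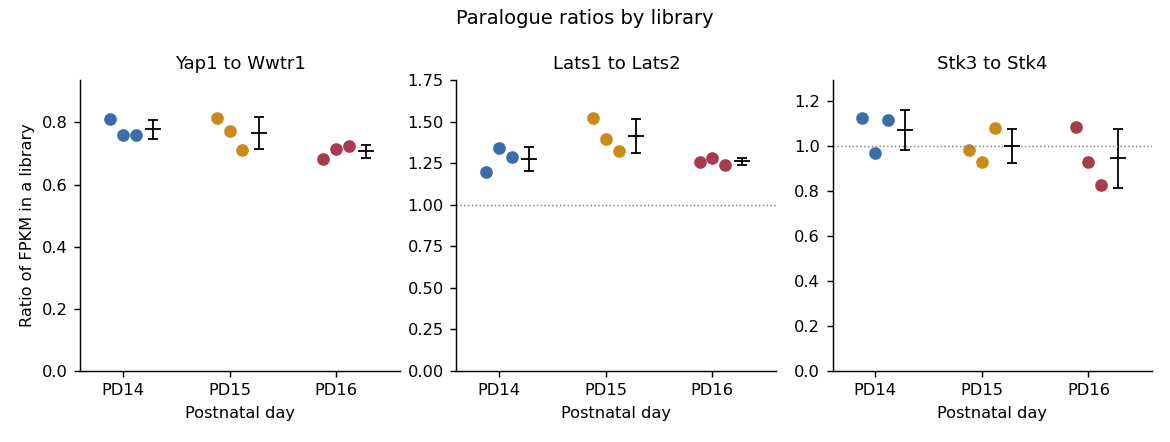
Ratio of FPKM within a library (y axis, from 0) for the paralogue pairs Yap1 to Wwtr1, Lats1 to Lats2 and Stk3 to Stk4 by postnatal day, with points for libraries, bars for the mean ± SD of 3 and a dotted line at a ratio of 1. Yap1 to Wwtr1 is 0.682 to 0.724 at PD16 and at least 0.760 at PD14, Lats1 to Lats2 is above 1 in every library, and Stk3 to Stk4 lies on both sides of 1.

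The scaffold gene Sav1 (ENSMUSG00000021067, minus strand of chr12:69965012-69987002) joins the MST and LATS kinases. It had 28.3, 26.6 and 27.3 FPKM at PD14, 26.3, 27.7 and 26.7 at PD15, and 28.3, 29.5 and 28.1 at PD16. The PD16 libraries lay above PD15 without overlap and overlapped PD14. Means were 27.4 ± 0.871, 26.9 ± 0.720 and 28.6 ± 0.753 FPKM (SD, n = 3), and the log2 change at PD16 against PD15 was 0.09 (adjusted p = 0.479, limma). The MOB1 adaptors, which bind and activate LATS, were outside the core and in the regulator list. Mob1a had a mean of 40.8 ± 0.560 FPKM at PD14, 43.4 ± 2.51 at PD15 and 45.9 ± 2.20 at PD16 (SD, n = 3), and its PD16 libraries did not overlap PD14 (log2 change 0.16, adjusted p = 0.146, limma). Mob1b had a log2 change of 0.10 (adjusted p = 0.426, limma).

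Tead2 was the predominant TEAD message. It held 57.1% to 63.0% of the summed FPKM of the 4 TEAD genes, with a median of 61.0% over the 9 libraries. Tead1 held 17.7% to 24.5%, Tead3 16.1% to 19.1% and Tead4 0.782% to 1.92%. Tead4, known best from the trophectoderm of the embryo, was at 0.300 to 0.764 FPKM and fell under the filter for testing. The order Tead2, Tead1, Tead3 and Tead4 held in each of the 9 libraries.

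Tead2 (ENSMUSG00000030796, plus strand of chr7:45215753-45233644) had 23.8, 21.8 and 25.1 FPKM at PD14, 24.0, 23.7 and 23.8 at PD15, and 22.9, 22.3 and 22 at PD16. The PD16 libraries were below PD15 without overlap, whereas PD14 covered both. Means were 23.6 ± 1.65, 23.8 ± 0.120 and 22.4 ± 0.461 FPKM (SD, n = 3), and the log2 change at PD16 against PD15 was -0.09 (adjusted p = 0.543, limma). Tead1 (ENSMUSG00000055320, plus strand of chr7:112679318-112906807) had 7.06 to 8.55 FPKM at PD14, 7.71 to 8.66 at PD15 and 7.70 to 9.43 at PD16. Tead3 (ENSMUSG00000002249, minus strand of chr17:28331671-28350817) had 6.74 to 7.27, 6.28 to 6.84 and 5.95 to 7.37 FPKM. Both overlapped between all days, with log2 changes at PD16 against PD14 of 0.10 for Tead1 and -0.07 for Tead3 (adjusted p = 0.548 and 0.617, limma).

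TEAD factors bind the MCAT element, so the promoters of the core and of known targets were read for its letters. These are CATTCC on one strand and GGAATG on the other. Windows from 250 bases before to 50 after the transcription start came from RefSeq on GRCm38.p6. The letters were found in 4817 of 32851 windows (14.7%), or in 4481 of 27025 genes (16.6%). Of the core, 8 genes had a window, and those of Yap1, Wwtr1, Lats2, Sav1 and Tead3 held the letters in at least 1 of their windows, while those of Lats1, Stk4 and Tead2 did not. Stk3 and Tead1 are not in the table. Of the target list, 7 of 15 genes with a window held them, and Lats2 is in both lists. Some genes, such as Wwtr1, Lats2 and Tead3, had more than 1 window and so more chances of a match. A match describes the letters only. Stretches of the 2 effectors, of the scaffold and of 3 target genes described later are shown 5′ to 3′ on the strand of the gene, with the element in capitals, so that the letters around it can be compared. They are from chr9:8004700-8004769, chr3:57576009-57576078, chr12:69987071-69987140, chr3:145650051-145650120 and chr7:25788929-25788983 on the minus strand and from chr17:78200137-78200206 on the plus strand.
Yap1: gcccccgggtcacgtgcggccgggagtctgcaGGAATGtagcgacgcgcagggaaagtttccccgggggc
Wwtr1: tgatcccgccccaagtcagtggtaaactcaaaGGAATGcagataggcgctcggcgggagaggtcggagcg
Sav1: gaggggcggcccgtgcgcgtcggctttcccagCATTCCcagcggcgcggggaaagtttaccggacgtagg
Ccn1: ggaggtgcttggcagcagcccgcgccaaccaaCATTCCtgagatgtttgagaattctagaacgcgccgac
Crim1: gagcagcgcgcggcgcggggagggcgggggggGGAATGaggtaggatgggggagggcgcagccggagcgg
Axl: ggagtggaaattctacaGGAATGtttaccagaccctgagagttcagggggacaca
The element begins 141 bases before the start in Yap1, 136 in Wwtr1, 106 in Sav1, 103 in Ccn1, 79 in Crim1 and 233 in Axl. On the strand of the gene the letters read GGAATG in Yap1, Wwtr1, Crim1 and Axl, and CATTCC in Sav1 and Ccn1.

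The wider pathway was described through a list of 73 regulators, of which 72 were found and 65 tested. None of the 65 was called between any pair of days by limma, beside 0.678%, 4.25% and 0.729% of all genes at PD15 against PD14, PD16 against PD14 and PD16 against PD15. At an unadjusted p under 0.05 there were 6, 14 and 6 of the 65 in this order, beside 14.7%, 22.8% and 14.1% of all genes. The median log2 change was 0.02, 0.04 and 0.03. Above 0 lay 37, 44 and 39 of the 65, beside 51.9%, 52.2% and 53.1% of all genes. The libraries of PD16 did not overlap those of PD14 for 13 regulators that were higher and 6 that were lower, beside 15% and 13.5% of all genes.

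By role, median log2 changes at PD16 against PD14 ran from -0.13 for the TEAD cofactors to 0.13 for the MOB1 adaptors. The polarity genes had a median log2 change of 0.09 with 7 of 8 above 0, and the RASSF scaffolds 0.09 with 5 of 6 above 0. Among the polarity genes, Crb1 passed the filter only through its PD16 mean of 1.04 FPKM, which favoured a positive sign. The median was 0.08 for the 11 binding partners of YAP or TAZ, 0.04 for the 11 kinases related to MST or LATS and 0.02 for the 9 members of STRIPAK, a phosphatase complex that acts against the MST kinases. It was below 0 for the 3 LIM proteins with -0.04 and for the atypical cadherin group with -0.07. The degradation group had -0.09 and the 3 TEAD cofactors tested -0.13. Among the TEAD cofactors, Vgll1 passed the filter only through its PD14 mean of 1.02 FPKM, which favoured a negative sign. Nf2, which encodes the membrane scaffold Merlin, had a log2 change of 0.07 (adjusted p = 0.476), and Vgll4, a TEAD cofactor that competes with YAP, one of -0.13 (adjusted p = 0.291), both by limma.

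Strn, which encodes the STRIPAK scaffold striatin, was the only regulator or target under the threshold in the F test over the 3 days (adjusted p = 0.0450, limma), which 3.03% of all genes passed. It had 14.0, 14.8 and 12.5 FPKM at PD14, 18.2, 18.1 and 16.9 at PD15, and 17.1, 16.4 and 16.6 at PD16. Both later days stood above PD14 without overlap. The log2 change was 0.35 at PD15 (SE 0.06, adjusted p = 0.0552) and 0.26 at PD16 (adjusted p = 0.0545) against PD14, both by limma and neither under the threshold. Leaving out replicate 2 of PD14 brought its adjusted p at PD16 to 0.04997 by limma, and array weights brought both comparisons under the threshold, with 0.0291 at PD15 and 0.0393 at PD16.

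Among the regulators with negative estimates, Sfn encodes 14-3-3 sigma, a protein of the family that holds phosphorylated YAP in the cytoplasm. Sfn had 1.49 to 2.28 FPKM at PD14, 0.511 to 0.993 at PD15 and 1.04 to 1.44 at PD16. These low levels rest on about 21 to 75 fragments in a library. Its log2 change was -0.72 at PD15 against PD14 (adjusted p = 0.0745, limma; 0.0334 with array weights) and -0.37 at PD16 (adjusted p = 0.181, limma), without overlap on either day. At PD15 the summed surface epithelium and oviduct markers were also lower without overlap, at 51.5 to 58.3 FPKM beside 59.3 to 66.1 at PD14. So were the endothelial markers, at 63.7 to 67.9 beside 69.0 to 74.0, and the red blood cell markers, at 112 to 128 beside 165 to 215. The fat tissue markers were at 4.62 to 5.2 beside 6.86 to 8.02. Within the first 3 sums, means rose from PD14 to PD15 for Upk3b (9.9 to 10.8 FPKM), Flt1 (2.34 to 2.37) and Bpgm (60.4 to 64.8). Krt7 had a mean of 0.79 FPKM on both days, and the means of the other members were lower at PD15. The part of these sums in these values of Sfn was not tested. Tnik, a kinase of the MAP4K-related group, had -0.28 and -0.21 (adjusted p = 0.173 and 0.180, limma), again without overlap. Ywhaq, which encodes 14-3-3 theta, stood on the other side with 84.1 to 102 FPKM at PD14 and 111 to 142 at PD16 (log2 change 0.39, adjusted p = 0.108, limma). Its highest values, 142 and 124 FPKM, were those of replicate 1 of PD16 and replicate 3 of PD15. Both were among the libraries with the highest summed FPKM over all genes, and the part of that sum was not tested.

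The remaining regulators with the highest or lowest estimates were Crb1, Btrc, Rassf4 and Fjx1. Crb1, an apical polarity gene, had 0.554 to 0.646 FPKM at PD14 and 0.942 to 1.2 at PD16. Its log2 change was 0.35 (adjusted p = 0.0922 by limma, and 0.0348 by limma without the intensity trend). With day means of 0.599, 0.791 and 1.04 FPKM, Crb1 passed the filter only through PD16. The filter thus favoured a higher PD16 for this gene, and its p-values cannot be read as support for a rise. Btrc, whose product marks YAP for degradation, had 10.9 to 11.4 and 9.40 to 9.75 FPKM on these days, without overlap (log2 change -0.19, adjusted p = 0.171, limma). At PD15 against PD14, Rassf4 had a log2 change of -0.31 and Fjx1, a kinase of the atypical cadherin branch, one of 0.29 (adjusted p = 0.373 and 0.206, limma).

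**Figure D4:**
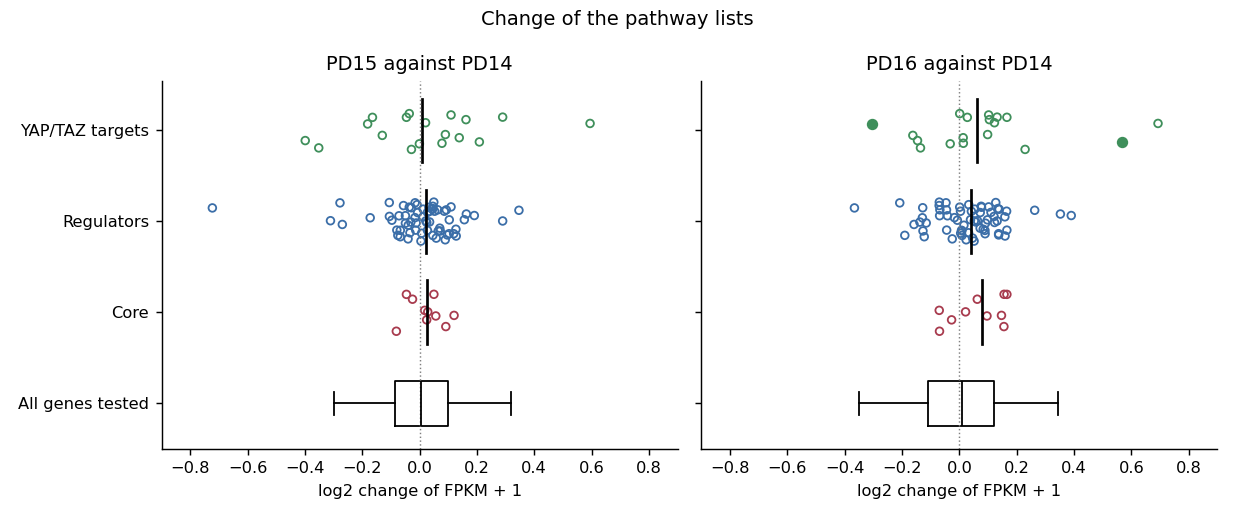
Log2 change of FPKM + 1 (x axis) at PD15 and PD16 against PD14 for the core, the regulator list and the target list, with circles for genes, filled where the adjusted p was under 0.05, black bars for list medians and a box plot of all genes tested whose box spans the quartiles and whose whiskers reach the 5th and 95th percentiles. The filled circles are Axl at -0.31 and Crim1 at 0.57, and no core gene or regulator is filled.

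Target genes known to be driven by YAP and TAZ were followed next. Of 22 listed, 18 were tested, and 4 are also core or regulator genes, among them Lats2. At PD16 against PD14, Crim1 rose and Axl fell by limma, which is 2 of 18 (11.1%) beside 4.25% of all genes. None was called at PD15 against PD14 or at PD16 against PD15, beside 0.678% and 0.729% of all genes. At an unadjusted p under 0.05 there were 6 and 4 of the 18 in these comparisons, beside 14.7% and 14.1% of all genes, and 5 at PD16 against PD14, beside 22.8%. Log2 changes above 0 were 9 of 18 at PD15 and 13 of 18 at PD16 against PD14, beside 51.9% and 52.2% of all genes, with medians of 0.01 and 0.06.

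Crim1, which encodes a membrane protein that binds bone morphogenetic proteins, had 22.3, 17.8 and 17.9 FPKM at PD14, 22.8, 21.6 and 22.8 at PD15, and 27.1, 26.0 and 34.5 at PD16. All PD16 libraries stood above the earlier days, with replicate 3 highest. Means were 19.3 ± 2.6, 22.4 ± 0.732 and 29.2 ± 4.62 FPKM (SD, n = 3), and PD16 was 1.48-fold PD14 on the scale of FPKM + 1 (log2 change 0.57, SE 0.11, adjusted p = 0.0304, limma). Over the alternatives its adjusted p ran from 0.0241 to 0.108 by limma. Among these the call was lost without PD14 replicate 2 (0.0743), PD14 replicate 3 (0.108), PD16 replicate 1 (0.0743) or PD16 replicate 3 (0.0532), with the 6 libraries of these days alone (0.0651) and with no filter (0.0828).

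Axl, a receptor tyrosine kinase gene, had 68.7, 69.9 and 68.4 FPKM at PD14, 58.9, 66.6 and 57.0 at PD15, and 53.6, 59.7 and 53.7 at PD16. PD14 stood above both later days without overlap. Means were 69.0 ± 0.782, 60.8 ± 5.09 and 55.7 ± 3.50 FPKM (SD, n = 3), and PD16 was 0.809-fold PD14 on the scale of FPKM + 1 (log2 change -0.31, SE 0.07, adjusted p = 0.0494, limma). This call lay at the edge of the threshold and was kept in 4 of 18 alternatives, with adjusted p from 0.0440 to 0.152 by limma. It was lost without any 1 of the PD14 or PD16 libraries or without PD15 replicate 1, with adjusted p from 0.0606 to 0.152 by limma, the highest without PD16 replicate 1. The summed FPKM of the 8 endothelial markers was lower at PD16 in the same way, at 69.0 to 74.0 at PD14 and 62.2 to 65.1 at PD16. So was that of the 9 surface epithelium and oviduct markers, 5 of them above 1 FPKM, at 59.3 to 66.1 and 44.6 to 49.3. Within the endothelial sum, the means of Pecam1, Cdh5, Kdr, Tek, Tie1, Emcn and Vwf were lower at PD16. Flt1 had a mean of 2.34 FPKM on both days. Within the epithelial sum, the means of Krt7, Krt8, Krt18 and Krt19 were lower. Upk3b overlapped, with 7.76 to 13.4 FPKM at PD14 and 8.92 to 11.4 at PD16. The 6 fat tissue markers, 1 of them above 1 FPKM, summed to 6.86 to 8.02 and 4.24 to 6.10. The part of these sums in the fall of Axl was not tested.

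Ccn2, listed in the tables as Ctgf, is the target most often read as a measure of YAP activity. It had 14.6, 19.9 and 20.6 FPKM at PD14, 34.0, 24.0 and 26.7 at PD15, and 30.6, 23.1 and 38.1 at PD16. Both later days stood above PD14 without overlap and spread widely. Means were 18.4 ± 3.32, 28.2 ± 5.2 and 30.6 ± 7.52 FPKM (SD, n = 3). The log2 change was 0.59 at PD15 (SE 0.20, adjusted p = 0.204) and 0.69 at PD16 (SE 0.20, adjusted p = 0.0780) against PD14, both by limma, the latter 1.62-fold. Over the alternatives the adjusted p at PD16 ran from 0.0559 to 0.193, so Ccn2 was called in none of them.

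Ccn1, listed as Cyr61, had 8.63 to 10.2 FPKM at PD14, 7.84 to 10.3 at PD15 and 9.51 to 14.4 at PD16. The days overlapped, and the high value was that of PD16 replicate 3, the library in which Ccn2 and Crim1 were also highest (log2 change at PD16 against PD14 0.23, adjusted p = 0.383, limma). Ankrd1, a target best known from the heart, was at 0 to 0.0694 FPKM and was not tested. Gadd45a, a gene of the growth arrest and DNA damage response, had 8.37 to 9.71 FPKM at PD14, 6.57 to 7.0 at PD15 and 7.47 to 8.38 at PD16. Its log2 change at PD15 against PD14 was -0.35 (SE 0.07, adjusted p = 0.0639 by limma, and 0.0499 with array weights), and at PD16 -0.14 (adjusted p = 0.273, limma). F3, the tissue factor gene, had -0.40 and -0.15 (adjusted p = 0.260 and 0.601, limma), and Arhgef17 had -0.13 and -0.16 (adjusted p = 0.417 and 0.200, limma).

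**Figure D5:**
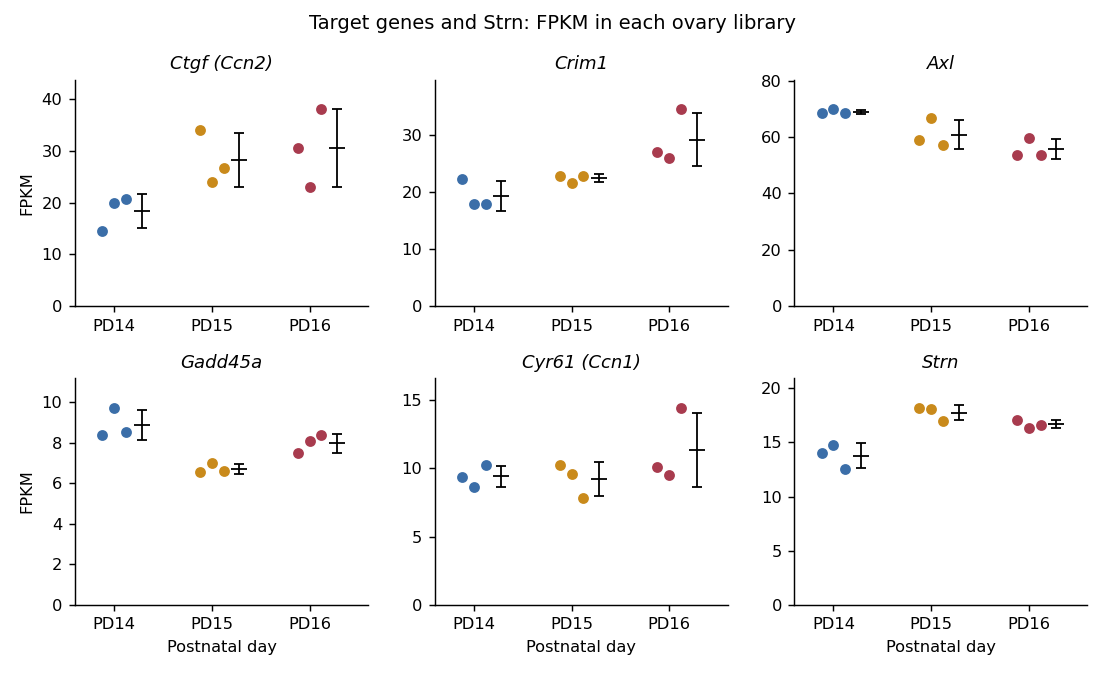
FPKM (y axis, from 0) of the target genes Ctgf (Ccn2), Crim1, Axl, Gadd45a and Cyr61 (Ccn1) and of the regulator Strn in each ovary library by postnatal day, with points for libraries and bars for the mean ± SD of 3. Crim1 lies at 26.0 or above at PD16 and at no more than 22.3 at PD14, Axl at no more than 59.7 at PD16 and at least 68.4 at PD14, and Ctgf above its PD14 values on both later days.

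Marker genes of the cell types of the ovary were read beside these levels. The 10 granulosa cell markers summed to 3118 to 3821 FPKM at PD14, 2968 to 3345 at PD15 and 3133 to 3674 at PD16, of which Inha alone gave 1780 to 2629 over the 9 libraries. Single markers differed from the sum. Amh, a hormone gene of growing follicles, rose, with 168 to 186 FPKM at PD14 and 235 to 256 at PD16 (log2 change 0.47, adjusted p = 0.0223, limma), and Inhba had 53.9 to 122 and 36.4 to 46.3 FPKM (log2 change -1.04, adjusted p = 0.0637, limma), both without overlap. The 10 oocyte markers summed to 1083 to 1365 at PD14, 1368 to 1472 at PD15 and 1020 to 1083 at PD16. The 8 theca and interstitial cell markers summed to 1623 to 2245 FPKM at PD14, 1196 to 1770 at PD15 and 1229 to 1637 at PD16, with 1062 to 2091 from Hsd3b1 alone, and the 8 stromal markers to 619 to 709, 545 to 620 and 625 to 640. The 8 red blood cell markers (6 above 1 FPKM) lay at 165 to 215 FPKM at PD14, 112 to 128 at PD15 and 116 to 171 at PD16, the 7 smooth muscle markers (6 above 1 FPKM) at 310 to 355, 298 to 396 and 341 to 461, and the 6 fat tissue markers (1 above 1 FPKM) at 6.86 to 8.02, 4.62 to 5.2 and 4.24 to 6.10. No marker on these lists was at 0 in all libraries. The part of these sums in the levels of the core was not tested.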

How the data were processed

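RNA of 9 ovaries, 3 for each of PD14, PD15 and PD16, was measured by RNA-Seq with the NEBNext Ultra kit on an Illumina HiSeq platform. The authors deposited FPKM for each library without counts. The submitters' processing notes name HISAT2 2.0.5 and mm10, and the counter and annotation are not given in the sources used here. Depth was derived from the FPKM step of a single fragment with GENCODE M21 exon lengths, and 94.2% to 94.7% of low values were whole multiples of it (tolerance 0.02). The 15495 genes whose mean FPKM exceeded 1 on any day entered the tests.

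Tests used limma 3.58.1 with an intensity trend in R 4.3.3 on log2(FPKM + 1), so that fold changes of low genes are understated, with all 9 libraries in 1 model and Benjamini-Hochberg adjustment over all genes tested. Single genes were compared by an exact two-sided permutation test. The ovaries are described as biologically independent. Calls mean an adjusted p under 0.05. Gene coordinates are from GENCODE M21 (GRCm38). Promoter sequences came from RefSeq. Python 3.11.15, NumPy 2.4.6, pandas 2.3.3 and Matplotlib 3.10.9 were used. The method was tested on simulated data whose planted changes were all larger than any change of a core gene, so changes of that size were not covered. The limma p-values rest on the spread between these ovaries, with the variance of each gene drawn towards a trend over all genes. A gene with a small spread of its own, such as Wwtr1, was thereby given a larger variance.

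The members, lists and alternatives were chosen with earlier results of these data known. Named genes were the core, regulators and targets that were called, the 3 highest and 3 lowest log2 changes of each list at PD15 and PD16 against PD14, and Ccn1, Ccn2, Ankrd1, Tead4, Mob1a, Mob1b, Nf2 and Vgll4.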

Additional observations from a re-analysis of the deposited data

How the results depend on the processing

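Of 710 adjusted p-values of core genes over the comparisons, the F test and the alternatives, none was under the threshold (lowest 0.0742, limma, for Wwtr1 with array weights). The alternatives share libraries, so these values are not independent. Of 540 log2 changes of core genes, 520 kept their sign. The exceptions were near 0. With array weights Stk3 was -0.0579 at PD15 against PD14 and 0.00392 at PD16 against PD15. Leaving out each library in turn gave at PD15 against PD14 -0.0739 to 0.104 for Stk3, -0.0122 to 0.110 for Tead1 and -0.0347 to 0.0619 for Tead2, at PD16 against PD14 -0.000995 to 0.0512 for Yap1 and -0.154 to 0.0655 for Stk3, and at PD16 against PD15 -0.0556 to 0.0183 for Yap1, -0.178 to 0.0464 for Stk3, -0.00172 to 0.0697 for Stk4, -0.0296 to 0.101 for Tead1 and -0.0589 to 0.0757 for Tead3. Among other genes with uncalled sign changes, array weights gave 0.0163 for Ccn1 at PD15 against PD14, and -0.00277 for Ccn2 and -0.0101 for Nf2 at PD16 against PD15. Without 1 library, Btrc was at -0.139 to 0.0108 and Ccn1 at -0.101 to 0.0728 at PD15 against PD14, Rassf4 at -0.0570 to 0.150 at PD16 against PD14, and at PD16 against PD15 Ccn2 at -0.0697 to 0.280, Arhgef17 at -0.0691 to 0.00194, Mob1b at -0.0248 to 0.0233 and Nf2 at -0.0343 to 0.0336.

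Counts of all genes called depended on the settings. At PD15 against PD14, 105 became 29 with no filter, 184 with array weights, 46 with the 6 libraries alone and 3 to 92 without 1 library, the 3 without PD15 replicate 1. At PD16 against PD14, 659 became 172 with no filter, 323 with the 6 libraries alone and 92 to 660 without 1 library, the 92 without PD16 replicate 1. At PD16 against PD15, 113 became 24 with no filter, 237 with array weights and 14 to 125 without 1 library, the 14 without PD15 replicate 1. In the F test, 469 became 95 with no filter, 878 with array weights and 100 to 354 without 1 library, the 100 without PD14 replicate 3. With array weights 2 regulators and 1 target were called at PD15 against PD14. At PD16 against PD14, 1 regulator was called with array weights and with no trend and 0 to 1 without 1 library. The call with no trend was that of Crb1, which passed the filter only through PD16. Of the 2 targets, 1 remained with a pseudocount of 0.1, median-ratio factors, no trend or array weights. With no filter or the 6 libraries alone 0 remained, and 0 to 2 without 1 library. The causes were not tested. Labels number the replicates of each day 1 to 3, but same-numbered libraries did not deviate together (r = -0.214 to 0.159, and 2 of 9 libraries correlated best with their own number). A replicate block gave 24, 227 and 56 genes called and 127 in the F test, and 0 targets at PD16 against PD14, where the adjusted p was 0.0600 for Crim1 and 0.0656 for Axl by limma. With 3 libraries a day, a core change within its interval of 0.10 to 0.30 to either side on the log2 scale is not separated from 0.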
